A study of Mus musculus with 6 samples.

Results

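The S100 calcium binding proteins are described here in the small intestine epithelium of mouse embryos at embryonic day 13.5 (E13.5), when the gut is still a simple tube. The set holds 9 genes chosen by symbol from the deposited count tables, *S100a1*, *S100a4*, *S100a6*, *S100a10*, *S100a11*, *S100a13*, *S100a14*, *S100a16* and *S100g*, out of 23366 genes in all. Of these 9, 8 passed the filter on low counts, as did 12501 genes of the whole table, and *S100a4* did not. RNA-sequencing was performed on 3 wild type libraries and 3 mutant libraries, and neither group had a treatment. The mutant genotype is written Shh-cre-egfp:Tcf7l1 lox/lox. In the mutants the Cre recombinase, fused to EGFP, is driven by the *Shh* locus and removes a floxed exon of *Tcf7l1*, a transcription factor gene of the WNT pathway, from the gut epithelium. The wild type libraries are not described as carrying the Cre allele. For every library, 500 live cells positive for the epithelial surface protein EpCAM were sorted, and 15 PCR cycles amplified the cDNA. The number of embryos behind a library and the litter are not given in the sources used here, so p-values measure the spread between these libraries.

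S100 proteins are small proteins that hold calcium in paired EF-hand loops. Most work as dimers that, on binding calcium, open a surface for a partner protein, often an annexin or a component of the cytoskeleton. *S100g* encodes calbindin-D9k, a vitamin D-dependent calcium buffer of absorptive enterocytes. *S100a10* encodes an exception that does not bind calcium and forms a complex with annexin A2 at the membrane. Most S100 genes lie in the epidermal differentiation complex, a gene cluster of mouse chromosome 3.

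In the annotation of mm9, the genome build of the counts, 8 of the 9 genes lie on chromosome 3. The first 6, *S100a1*, *S100a13*, *S100a14*, *S100a16*, *S100a4* and *S100a6*, lie within 103 kb, from 90314956 to 90418336. *S100a11* and *S100a10* follow 2.91 Mb further on, between 93324410 and 93368565, and are 28.8 kb apart. *S100g* lies on chromosome X, from 159399924 to 159402531. *S100a1* and *S100a13* are transcribed away from each other, with 42 bases between their annotated starts. None of the members shares exon bases with another annotated gene, and the span of *S100g* overlaps that of *Ctps2* (log2 fold change 0.02) outside their exons. Near-identical copies elsewhere in the genome were found for *S100a11* alone. It had 2 copies (minimum identity 95%, minimum cover 50% of the longest transcript), one of them on chromosome 4 from 115739808 to 115740307 with 98.2% identity over 98.2% of the transcript. Since uniquely mapping reads were counted, reads shared with these copies were not assigned to *S100a11*, and its level is uncertain.

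Promoter windows of 300 bases, from 250 before to 50 after an annotated start, were taken from RefSeq on GRCm38.p6. The table held 7 of the 9 members, and *S100a10* and *S100a14* were not in it. The windows were searched on both strands for TCAAAG, a core of TCF/LEF sites, which is the family of the factor deleted in the mutants. The other motifs were TATAAA, known as the TATA box and bound by TBP. A further motif was TGANTCA, which AP-1 factors bind. The last was GGGCGG, the GC box, which SP and KLF factors bind. No match overlapped another in the windows shown. The windows below are those of a gene higher in the mutants (*S100a16*, 2 starts), of the one member whose window holds TCAAAG (*S100a11*) and of the X-linked member (*S100g*). Each reads 5′ to 3′ on the strand of the gene, with motif matches in capitals.
S100a16, plus strand, chr3:90537004-90537303: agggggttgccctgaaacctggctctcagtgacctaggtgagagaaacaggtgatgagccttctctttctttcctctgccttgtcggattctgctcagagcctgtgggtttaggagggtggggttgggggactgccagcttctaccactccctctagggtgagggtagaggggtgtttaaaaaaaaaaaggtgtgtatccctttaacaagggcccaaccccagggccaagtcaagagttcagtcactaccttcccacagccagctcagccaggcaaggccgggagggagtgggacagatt
S100a16, plus strand, chr3:90540896-90541195: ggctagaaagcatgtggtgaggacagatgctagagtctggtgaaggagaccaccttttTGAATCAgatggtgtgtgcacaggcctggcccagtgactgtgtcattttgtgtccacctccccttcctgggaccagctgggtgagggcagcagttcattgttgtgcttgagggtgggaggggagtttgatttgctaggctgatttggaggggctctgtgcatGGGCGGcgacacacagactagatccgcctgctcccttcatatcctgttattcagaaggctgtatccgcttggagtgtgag
S100a11, plus strand, chr3:93520246-93520545: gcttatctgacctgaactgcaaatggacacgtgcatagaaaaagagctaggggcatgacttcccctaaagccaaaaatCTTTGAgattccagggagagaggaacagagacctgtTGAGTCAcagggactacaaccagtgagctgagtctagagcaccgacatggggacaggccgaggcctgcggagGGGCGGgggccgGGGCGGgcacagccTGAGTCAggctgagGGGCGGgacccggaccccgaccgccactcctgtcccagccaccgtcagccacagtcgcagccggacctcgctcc
S100g, minus strand, chrX:162964550-162964849: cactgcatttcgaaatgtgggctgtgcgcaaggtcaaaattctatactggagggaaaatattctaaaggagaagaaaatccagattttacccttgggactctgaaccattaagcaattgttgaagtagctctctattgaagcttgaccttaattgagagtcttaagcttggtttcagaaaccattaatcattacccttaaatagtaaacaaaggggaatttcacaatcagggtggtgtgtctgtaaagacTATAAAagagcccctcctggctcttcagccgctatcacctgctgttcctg

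In *S100a11* the TCF/LEF core lies on the opposite strand 172 bases before the start, with AP-1 matches at 136 and 38 bases and GC boxes at 64, 52 and 24 bases before it. The next window of *S100a16* holds an AP-1 match and a GC box, and its first window holds none of the motifs. In *S100g* the TATA box begins at the annotated start. Over all 32851 windows, 16% held the TCF/LEF core, 13.6% the TATA box, 7.81% the AP-1 motif and 35.7% the GC box. Among the 7 members with a window these were held by 1, 2, 2 and 2 genes. The windows of *S100a1* and *S100a13* share 204 bases. The *S100g* window was 41.0% G and C, and the *S100a11* window 61.7%, where the median of all windows was 52.7%.

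Total counts lay between 18216537 and 20397278 per library, and TMM normalization of edgeR was applied. *Tcf7l1* itself had 438 ± 64.1 normalized counts in wild type and 49.1 ± 21.1 in mutant libraries (mean ± SD, n = 3, log2 fold change -3.16). *Shh*, whose locus carries Cre, fell from 481 ± 65.8 to 198 ± 22.6 (log2 fold change -1.28, edgeR adjusted p = 6.1e-05). *Xist* had 0 counts in every wild type library, and 4 Y-linked genes, *Uty*, *Kdm5d*, *Eif2s3y* and *Ddx3y*, had 0 in every mutant library, so that genotype, the Cre allele and the sex of the embryos cannot be told apart. Of the epithelial marker genes, 8 of 8 passed the filter, and their summed level was 156102 to 166250 in the wild type and 151440 to 155328 in the mutants. Of 6 endothelial markers, 4 were at 0 in all libraries, *Cdh5* and *Kdr* among them. Summed levels of 12 blood and macrophage markers were 65.6 to 120.3 in the wild type and 64.2 to 117 in the mutants, with *Ptprc* at 0, those of 12 mesenchymal markers 1371 to 1700.5 and 1114 to 1756, and those of 8 neural crest and glial markers 370.4 to 428 and 322 to 425. Of these 3 lists 2, 6 and 5 genes were tested, and 0 were called, but the sums hold genes with fold changes of opposite sign. Groups lay apart for 1, 2 and 1 of the tested genes, of which 0 were higher in the mutants, where 43.0% of all tested genes lay apart. Among the mesenchymal markers, *Vim* was lower in all mutant libraries (log2 fold change -0.46, edgeR adjusted p = 0.0049) and *Col3a1* too, at low counts (-2.21, edgeR adjusted p = 0.026), and *Pdgfra*, not tested, had 50 raw counts summed over the wild type and 1 over the mutants. The smooth muscle genes *Acta2* (1.52, edgeR adjusted p = 0.014) and *Tagln* (1.31, edgeR adjusted p = 0.026) had higher means in the mutants. Both overlapped between groups and were highest in mutant 3, with 489 and 264 normalized counts. The embryonic globin *Hbb-y* had 22, 30 and 21 raw counts in the wild type and 4, 5 and 6 in the mutants. The part of these markers in the levels of the S100 genes was not tested.

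Within the wild type epithelium the S100 genes covered a wide range of levels. On the scale of normalized counts per kb of merged exon, *S100a11* was highest with 4422 ± 232, followed by *S100a10* with 2931 ± 159 and *S100g* with 1913 ± 154 (mean ± SD, n = 3). *S100a6* stood at 997 ± 54.9 per kb, *S100a16* at 609.8 ± 26.6 and *S100a1* at 490.0 ± 30.4. *S100a13* and *S100a14* were far lower, at 77.6 ± 5.52 and 43.0 ± 1.02, and *S100a4* was close to 0. No neighbours in this order overlapped between their wild type libraries. The mutant libraries kept the same order, with 4828 ± 269.8 for *S100a11*, 4215 ± 175 for *S100a10*, 2476 ± 151 for *S100g*, 1405 ± 106 for *S100a6*, 918 ± 49.5 for *S100a16* and 697 ± 25.1 for *S100a1* per kb. *S100a13* at 100.1 ± 32.0 and *S100a14* at 50.5 ± 16.5 per kb overlapped there. *S100a10* and *S100a11* together made up 63.4% to 64.8% of the members' summed level per kb in the wild type and 61.4% to 61.7% in the mutants. The place of *S100a10* depends on the length used. Divided by its longest transcript of 685 bases in place of 1212 bases of merged exon, its wild type level was 5186 per kb, above *S100a11*.

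**Figure D1:**
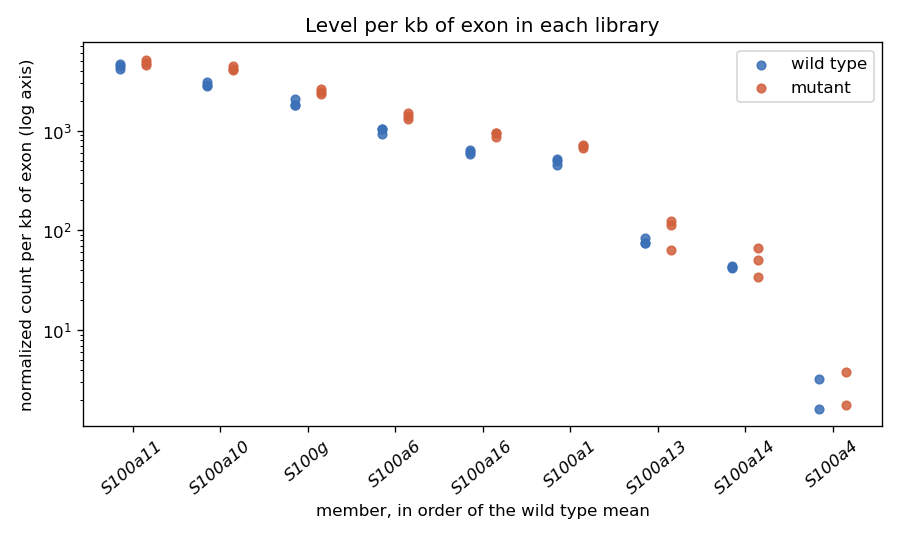
Normalized count per kb of merged exon (vertical log axis) of each S100 member, ordered by the wild type mean, with 1 point per library (blue wild type, orange mutant). *S100a11* and *S100a10* lead, *S100a13* and *S100a14* stay at or below 124 per kb, and the libraries in which *S100a4* had 0 counts are not drawn.

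The comparison of mutant and wild type libraries asks whether S100 genes change when *Tcf7l1* is lost from the embryonic epithelium. Adjusted p values come from edgeR (quasi-likelihood test, Benjamini-Hochberg over all tested genes). A call of higher or lower needed an adjusted p under 0.01, a log2 fold change of 0.5 or more in size and a mean of 50 or more normalized counts. By this rule 2 of the 8 tested members, *S100a10* and *S100a16*, were higher in the mutants and 0 were lower, where 2.78% of all tested genes were called higher, 5.83% lower and 8.62% in either direction. *S100a6* was past the adjusted p but just under the fold change, so that 3 of 8 members passed an adjusted p of 0.01 with a higher level at any fold, as did 7.32% of all tested genes. The log2 fold changes of the 8 ran from 0.13 to 0.59, all above 0, with a median of 0.43, beside -0.04 over all tested genes, of which 45.7% were above 0. The summed level of the members was 8530 to 9333 normalized counts in the wild type and 11473 to 12494 in the mutants. In bulk RNA, fewer cells of a type and less RNA per cell cannot be told apart.

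**Figure D2:**
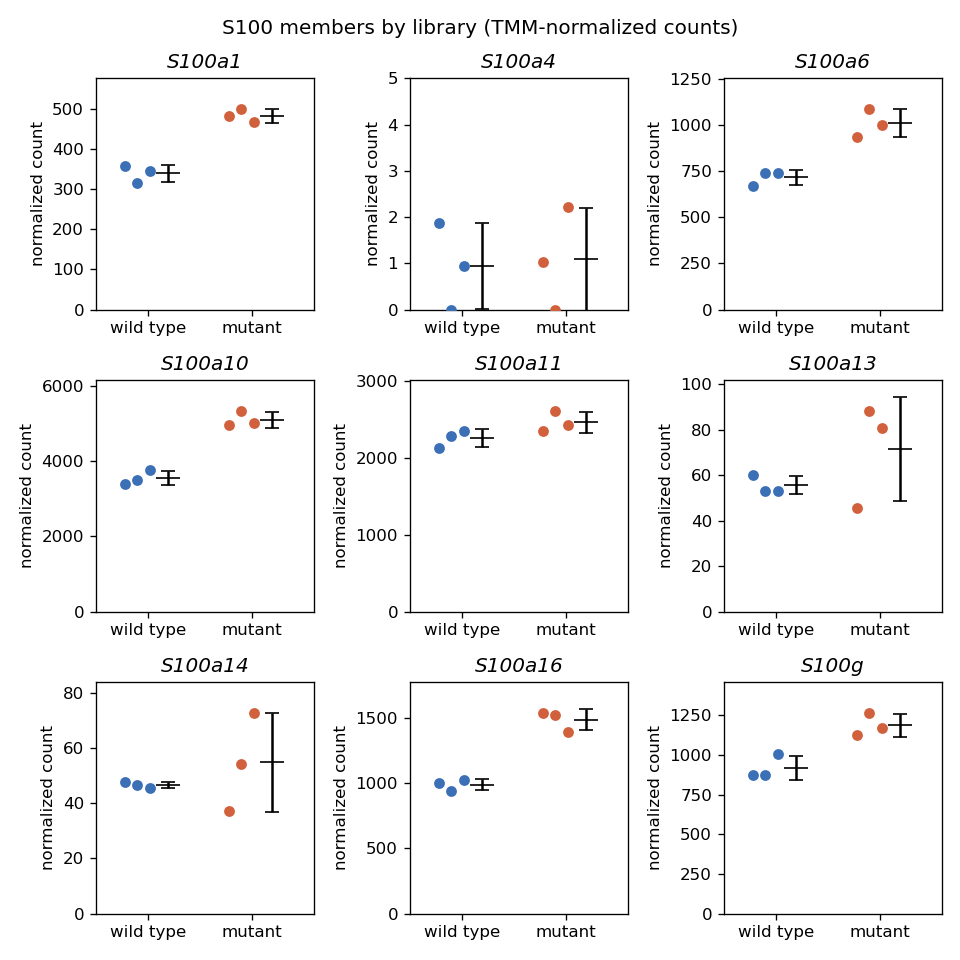
TMM-normalized counts (vertical axes, from 0) of the 9 S100 members in each library, with blue points for wild type, orange points for mutant and a black bar for the mean ± SD of 3 libraries. The groups stand apart for *S100a1*, *S100a6*, *S100a10*, *S100a16* and *S100g*, and overlap for *S100a4*, *S100a11*, *S100a13* and *S100a14*.

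Normalized counts of *S100a10* (ENSMUSG00000041959), the annexin A2 partner, were 3390.0, 3501 and 3766 in the 3 wild type libraries and 4952, 5349 and 5023 in the 3 mutant libraries, in the order of their numbers here and in later lists. Every mutant library was above every wild type library. The means of 3552 ± 193 and 5108 ± 212 gave a log2 fold change of 0.52 (± 0.07 SE, edgeR adjusted p = 9.0e-05), a 1.44-fold higher level. The log2 fold change fell to 0.49, under the threshold, without wild type 1 and without mutant 2, at adjusted p values of 0.0012 and 0.0011.

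For *S100a16* (ENSMUSG00000074457), an epithelial S100 protein with weak calcium binding, the wild type libraries held 997, 939 and 1023 normalized counts and the mutant libraries 1539, 1523 and 1393. Again the groups were fully separate. The mean rose from 986 ± 43.0 to 1485 ± 80.1 (log2 fold change 0.59 ± 0.10 SE, edgeR adjusted p = 3.9e-04). With each library left out in turn, *S100a16* stayed called, at log2 fold changes from 0.56 to 0.64. Other S100 genes close by on chromosome 3 are *S100a14*, 8421 bases away, and *S100a13*, 12673 bases away, and neither of these was called.

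Normalized counts of *S100a6* (ENSMUSG00000001025), or calcyclin, which binds the adaptor encoded by *Cacybp*, were 671, 741 and 738 in wild type and 938, 1090.5 and 1002 in mutant libraries. The groups did not overlap. The means were 717 ± 39.5 and 1010.3 ± 76.5 (log2 fold change 0.49 ± 0.11 SE, edgeR adjusted p = 0.0039). *S100a6* was called with DESeq2 (log2 fold change 0.52) and with RLE normalization (0.52). It was also called by edgeR without mutant 1 (0.55) and without wild type 3 (0.53). With any one of the other libraries left out it was not called. The edgeR adjusted p was 0.027 without wild type 1, 0.012 without wild type 2, 0.026 without mutant 2 and 0.016 without mutant 3.

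*S100a1* (ENSMUSG00000044080), best known from striated muscle, where its product acts on the ryanodine receptor, had 358, 317 and 345 normalized counts in wild type and 483, 502 and 467 in mutant libraries. Here too the lowest mutant library was above the highest wild type library. The log2 fold change was 0.51 (SE 0.14) with means of 340.1 ± 21.1 and 484 ± 17.4, and the adjusted p of 0.014 missed the threshold of 0.01. It passed with DESeq2 (adjusted p = 0.0045), and the edgeR value ran from 0.014 to 0.055 with each library left out.

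*S100g* (ENSMUSG00000040808) had 876, 875 and 1004 normalized counts in the wild type and 1128, 1268 and 1169 in the mutants. Wild type 3 was the library nearest to the mutants, without reaching them. With means of 918 ± 73.9 and 1188 ± 72.3 the log2 fold change was 0.37 (± 0.11 SE, edgeR adjusted p = 0.015), and *S100g* was not called. It is the X-linked member, and the groups differ in sex. The 430 tested genes of chromosome X had a median log2 fold change of -0.02, with 3.02% called higher and 5.81% called lower.

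The remaining members were not told apart between the groups. *S100a11* (ENSMUSG00000027907), a partner of annexin A1, had 2128, 2293 and 2358 normalized counts in wild type and 2349, 2619 and 2433 in mutant ones, with the lowest mutant library just below the highest wild type library (log2 fold change 0.13 ± 0.08 SE, edgeR adjusted p = 0.26). *S100a13* (ENSMUSG00000042312), which takes part in the release of FGF1, had 60.0, 53.1 and 53.2 in wild type and 45.6, 88.4 and 80.8 in mutant ones (log2 fold change 0.37 ± 0.35 SE, edgeR adjusted p = 0.47). *S100a14* (ENSMUSG00000042306), another epithelial member, had 47.8, 46.6 and 45.6 against 37.3, 54.3 and 73.0 (log2 fold change 0.23 ± 0.39 SE, edgeR adjusted p = 0.69). In both of these low genes mutant 1 lay below all wild type libraries and the other mutant libraries above them, and without mutant 3 the log2 fold change of *S100a14* was -0.03. *S100a4* (ENSMUSG00000001020), a marker of fibroblasts and macrophages, had 2, 0 and 1 raw counts in wild type and 1, 0 and 2 in mutant libraries, at or under a floor of 3 counts, so that no fold is given. Its difference was not detectable at this depth.

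Groups were separate for 5 of the 8 tested members, which were higher in the mutants, where 20.8% of all tested genes were separate and higher and 43.0% separate in either direction. An adjusted p under 0.05 with a higher level was reached by 5 of the 8 members and by 13.6% of all tested genes.

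S100 genes are short, and fold changes in these libraries moved with gene length. The members span 480 to 1617 bases of merged exon. The 1527 tested genes of that length range had a median log2 fold change of 0.18 with 5.24% called higher, while the medians of 5 equal-sized groups of genes by length fell from 0.14 for the shortest to -0.15 and -0.13 for the longest. With a loess correction for gene length, 0 members were called. *S100a10* then had a log2 fold change of 0.38 (edgeR adjusted p = 7.6e-04) and *S100a16* one just under 0.5 (adjusted p = 0.0012). *S100a6* fell to 0.26 (adjusted p = 0.061), *S100a1* to 0.27 (adjusted p = 0.14) and *S100g* to 0.10 (adjusted p = 0.41), and *S100a11* turned to -0.14 (adjusted p = 0.16). The median of the members was 0.19 with this correction, beside 0.00 over all tested genes. The correction used merged exons, which measure 1212 and 1617 bases for *S100a10* and *S100a16*, while their longest transcripts measure 685 and 1127. A correction by the longest transcript was not run. With library size as the only scaling the median of all genes shifted by -0.11 and 0 members were called, with 0.42 for *S100a10* and 0.49 for *S100a16*. The part of length in the members' differences was not tested beyond these corrections.

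**Figure D3:**
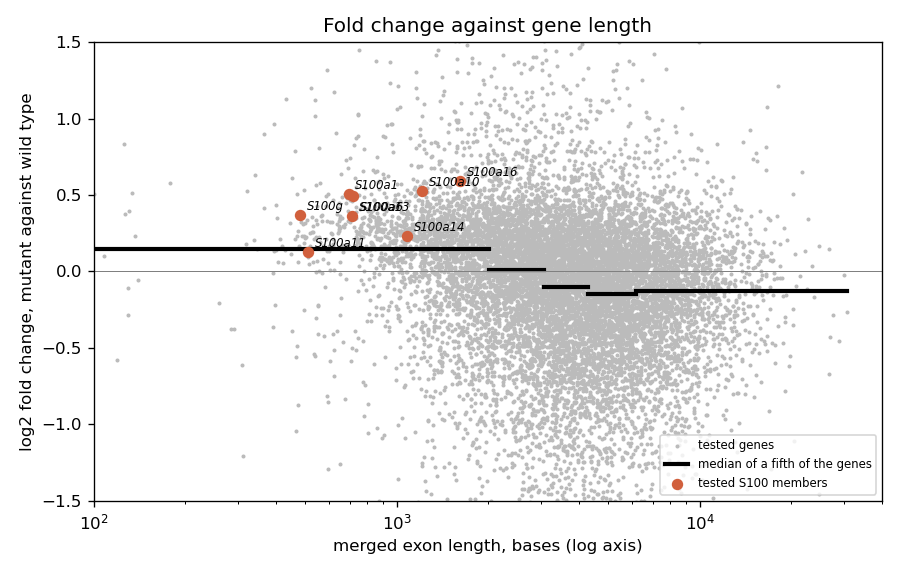
Log2 fold change of mutant against wild type (vertical axis) by merged exon length in bases (horizontal log axis) for 12333 tested genes with a known length, of which 446 lie outside the axes. Black lines are medians of 5 equal-sized groups of genes by length, from 0.14 in the shortest to -0.13 in the longest, and the orange S100 members sit among the short genes.

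**Figure D4:**
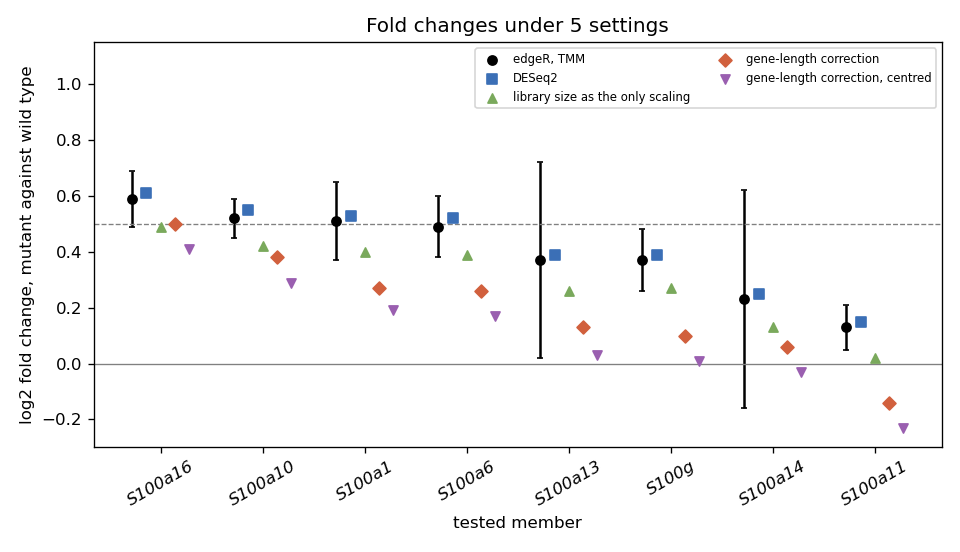
Log2 fold change of mutant against wild type (vertical axis) of the 8 tested members with edgeR and TMM (black, ± SE) and under 4 other settings. The dashed line marks the fold change threshold of 0.5. *S100a16* and *S100a10* pass it with edgeR and TMM and with DESeq2 and do not pass it with the other 3 settings. *S100a1* is also above it with edgeR and TMM (0.51) and with DESeq2 (0.53), and *S100a6* with DESeq2 (0.52).

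Annexins, the calcium- and membrane-binding partners of several S100 proteins, moved in both directions. All 12 were tested, with 1 called higher, 2 lower and a median log2 fold change of -0.17. *Anxa13*, an annexin of the intestinal epithelium, rose from 683 ± 30 to 1611 ± 171 normalized counts (log2 fold change 1.24, edgeR adjusted p = 7.3e-07). *Anxa1* fell from 1946 ± 152 to 1117 ± 150.3 (log2 fold change -0.80, adjusted p = 6.6e-05) and *Anxa3* from 638 ± 20.9 to 411 ± 29.7 (log2 fold change -0.63, adjusted p = 0.0022). The call of *Anxa3* was lost without mutant 2 and without mutant 3. *Anxa2*, which pairs with *S100a10*, had 6366 ± 463 and 5926 ± 9.29 (log2 fold change -0.10, adjusted p = 0.30), with every mutant library below every wild type library. Groups were separate for 8 of the 12 annexins, 2 of them higher in the mutants, where 43.0% of all tested genes were separate. The most abundant annexin, *Anxa4*, had a log2 fold change of 0.47 (adjusted p = 2.1e-04), under the threshold for a call. The other abundant annexins that were not called were *Anxa7* (-0.01), *Anxa5* (-0.24) and *Anxa6* (-0.38, adjusted p = 0.019). *Anxa8*, singled out after its values were seen, had 30, 106 and 68 raw counts in wild type libraries and 5, 8 and 4 in mutant ones. Its groups were separate (log2 fold change -3.37, edgeR adjusted p = 8.3e-04), and its mean was under the 50 normalized counts needed for a call.

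Ratios of raw counts within a library do not depend on how the libraries are scaled. They were taken for 5 pairs of genes, which were chosen after the values were seen. The ratio of *S100a10* to *Anxa2* was 0.565, 0.563 and 0.547 in the wild type and 0.835, 0.902 and 0.849 in the mutants, a log2 difference of 0.63 (0.59 to 0.65 with each library left out). For *S100a11* to *Anxa1* it was 1.20, 1.103 and 1.19 in wild type and 2.22, 2.03 and 2.42 in mutant libraries, a log2 difference of 0.93. The groups were separate for both of these pairs. *S100a10* also moved against its neighbour *S100a11*, with ratios of 1.59, 1.53 and 1.60 in wild type and 2.11, 2.04 and 2.07 in mutant libraries, a log2 difference of 0.40. For each of these 3 pairs the exact 2-sided permutation p was 0.1, the smallest that 3 libraries against 3 allow, and 0.167 after Benjamini-Hochberg adjustment over the 5 pairs. The ratio of *S100a6* to *Cacybp* differed by 0.17 on the log2 scale (exact permutation p = 0.2, adjusted 0.25), and that of *S100a6* to *Anxa11* by 0.27 (exact permutation p = 0.4, adjusted 0.4). The merged exons of *Anxa2* and *Anxa1* measure 3731 and 2608 bases, longer than those of their S100 partners, and these ratios are not corrected for length.

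**Figure D5:**
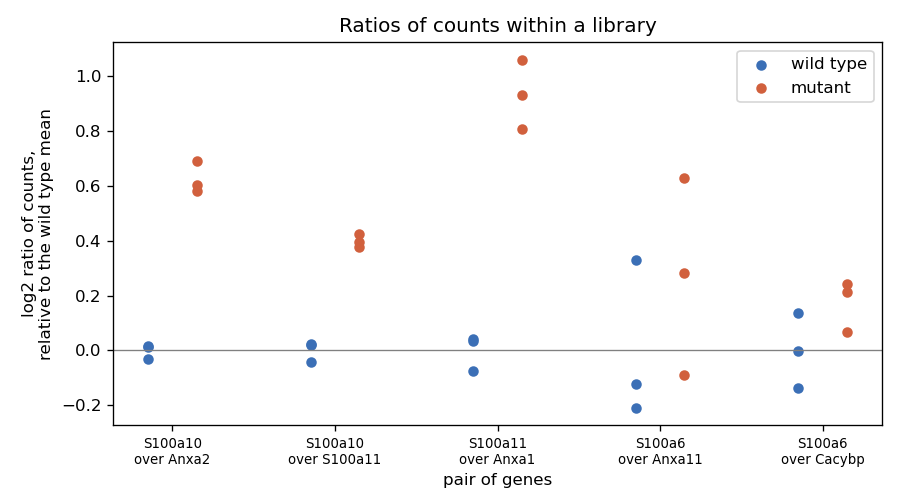
Log2 ratio of raw counts within each library, relative to the wild type mean of the pair (vertical axis), for 5 pairs of genes, with 1 point per library. The mutant libraries stand above all wild type libraries for *S100a10* over *Anxa2*, *S100a10* over *S100a11* and *S100a11* over *Anxa1*, and overlap them for the pairs with *S100a6*.

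Of 25 other binding partners and receptors of S100 proteins, 21 were tested, with 1 called higher, 1 lower and a median log2 fold change of 0.06. *Plat*, tissue plasminogen activator, which binds the S100A10 complex on cell surfaces, rose from 340.2 ± 10.9 to 548 ± 70.2 normalized counts (log2 fold change 0.69, edgeR adjusted p = 0.0027). Its call was lost without wild type 1, without mutant 1 and with library size as the only scaling. *Capza1*, a subunit of the actin capping protein, fell from 3925 ± 373 to 1761 ± 9.38 (log2 fold change -1.16, adjusted p = 8.3e-08). The other capping protein genes *Capza2* and *Capzb* had log2 fold changes of 0.32 and 0.00 and were not called. *Cacybp* had 0.31 (adjusted p = 0.0076), *Bsg*, a receptor of S100A9, 0.16, and *Trp53*, whose product is bound by several S100 proteins, 0.06, all under the threshold for a call.

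*S100g* is read beside the genes of vitamin D action and calcium transport. Of 19 such genes 13 were tested, 0 were called higher and 1 lower, with a median log2 fold change of -0.15. *Rxra*, which encodes the partner of the vitamin D receptor, fell from 216 ± 32.8 normalized counts to 119 ± 19.4 (log2 fold change -0.85, edgeR adjusted p = 0.009), a call kept in 8 of 18 alternatives and lost when any one of wild type 1, wild type 2, mutant 1, mutant 2 and mutant 3 was left out. The abundant genes of the list that were not called were *Atp2b1* (-0.33), the calcium pump of the basolateral membrane, *Atp2a2* (0.11), *Cldn12* (-0.19), *Orai1* (0.29) and *Cldn2* (0.51). Groups were separate for 7 of the 13 tested genes, where 43.0% of all tested genes were separate. Of the 7, 3 were higher in the mutants, *Orai1*, *Cldn2* and *Slc8a1*. *Trpv6*, *Atp2a3*, *Vdr* and *Slc8a1*, of low counts, were singled out after their values were seen. *Slc8a1* had 26, 26 and 8 raw counts in wild type and 32, 45 and 31 in mutant libraries (log2 fold change 1.03, edgeR adjusted p = 0.17). *Trpv6*, the apical calcium channel, had 72.2, 35.4 and 50.4 in wild type and 18.6, 6.39 and 6.64 in mutant libraries. The *Trpv6* groups were separate (log2 fold change -2.30, adjusted p = 0.0072), with a mean under the 50 counts needed for a call. *Atp2a3*, a calcium pump of the endoplasmic reticulum, had 26, 59 and 27 raw counts in wild type libraries and 0, 2 and 2 in mutant ones (log2 fold change -4.50, edgeR adjusted p = 0.0012), also separate and under that mean. *Vdr*, the vitamin D receptor, had 24, 21 and 12 raw counts in wild type and 5, 0 and 3 in mutant ones (log2 fold change -2.60, adjusted p = 0.035). *Cyp24a1*, a target gene of the receptor, was at 0 in all libraries.

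Of 10 other S100 symbols sought, 8 were in the tables and 1, *S100a5*, was tested. *S100a5* had 19.7, 6.53 and 19.96 normalized counts in wild type and 38.3, 33.0 and 29.9 in mutant libraries. Every mutant library was above every wild type library, at a log2 fold change of 1.13 (SE 0.57, edgeR adjusted p = 0.15). *S100a8* and *S100a9*, the calprotectin genes of neutrophils, had 0 of 60094593 counts in wild type and 0 of 56897796 in mutant libraries, where a count of 0 allows up to 3. *S100b*, of glia, had 13, 0 and 0 raw counts in wild type and 1, 9 and 5 in mutant libraries. Of 7 S100 fused-type genes, which encode large proteins of the epidermis and hair, *Tchh* alone was tested (log2 fold change 0.36, adjusted p = 0.33).

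Around the members, 15 other annotated genes lie within 100 kb. Of the 8 tested, *S100a5* among them, 0 were called, and their median log2 fold change was 0.08. The log2 fold change was above 0 for 6 of them, as it was for 45.7% of all tested genes. *Ints3* was lower in all mutant libraries (log2 fold change -0.62, edgeR adjusted p = 0.013). The 3 genes whose log2 CPM values over the 6 libraries were most like those of *S100a10* were *Erp29*, *Calml4* and *Nudt19* (Pearson r of 0.999, 0.999 and 0.998). For *S100a16* they were *Gmds*, *Plgrkt* and *Slc7a6os* (r of 0.997 each). These are descriptions over libraries that fall into 2 separate groups, and 760 and 576 of 10564 genes had an r over 0.95 with *S100a10* and *S100a16*.

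Markers of intestinal cell types differed between the same groups of libraries. Of 12 enterocyte markers, 10 were tested, 6 were called higher and 0 lower, and their summed level was 24661 to 26478 normalized counts in the wild type and 32169 to 34192 in the mutants, with *Sis* and *Lct* not tested. Of 12 gastric epithelium markers, 8 were tested and 3, *Vsig1*, *Nkx6-3* and *Cldn18*, were called lower, and their sum was 1480 to 1521 and 247 to 358. Of 6 anterior intestine markers 2 of 3 tested were called lower, *Pdx1* and *Onecut2*, with sums of 3613 to 4466 and 2917 to 3113. Of 6 posterior markers 1 was tested and 0 called, with sums of 114 to 146 and 47.6 to 71.3. Of 4 mesothelial markers 2 were tested and *Msln* was called lower, with sums of 550.3 to 824 and 437 to 715. The other tested one, *Upk3b*, had a log2 fold change of 0.39 (edgeR adjusted p = 0.12) and was not called. Among the 8 epithelial markers 6 had a lower level in the mutants, and *Krt18*, *Cdh1* and *Cdx2* were called lower. The other 2 were higher in all mutant libraries and were not called. These were *Epcam* (log2 fold change 0.25, edgeR adjusted p = 0.013) and *Cldn7* (0.24, edgeR adjusted p = 0.0091). The part of these differences in the levels of the S100 genes was not tested.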

How the data were processed

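The authors used STAR 2.5.2b for alignment to mm9 and featureCounts 1.5.1 for counting unique reads on a UCSC gene model, and deposited these raw counts, not normalized, for 6 libraries of 500 sorted cells. The strand setting is not given in the sources used here. The authors tested genes with DESeq2 1.18.1 on genotype and called them by fold change, FDR and an RPKM of at least 50, which a mean normalized count of at least 50 replaces here.

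The test on counts was run in edgeR 4.0.16 under R 4.3.3 (TMM, filterByExpr, quasi-likelihood test on genotype, Benjamini-Hochberg adjustment), after a check of the scripts on simulated data. Normalized counts are scaled to the mean library. Exon lengths and positions come from GENCODE M1 on mm9, matched by symbol for 98.7% of tested genes. Copies were sought with BLAST+ 2.17.0. Pairs of libraries of a group had a chi-square of 5.66 to 15.8 per gene, above the 1 of sampling noise, and each was used as a replicate. This does not show whether the libraries came from separate embryos. The members, gene lists and tests were chosen with earlier results of these data known. All members are named, as are called genes of each family list and up to 5 abundant others, and 3 similar genes per called member. Alternatives were DESeq2 1.42.0, other scalings, filters and thresholds, gene-length corrections (loess, span 0.5), a replicate block and leaving out each library. Reads carry no molecular identifiers, so floors cover counting error only. Single values of some list genes are not reported here.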

Additional observations from a re-analysis of the deposited data

How the results depend on the processing

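Of 144 fold changes of the 8 tested members under the alternatives, 122 kept their direction and their side of the call, 7 were newly called, 11 lost the call and 4 changed sign. The alternatives that changed only a threshold or the RPKM rule reused the main fit, so their direction could not change. Members called higher numbered 4 with DESeq2. With an RPKM of at least 50 they numbered 1, which was *S100a10*, and *S100a16* was not called. They numbered 0 with scaling by library size alone, with a minimum log2 fold change of 1 in size and with both gene-length corrections. With each library left out in turn they numbered 1 to 3, the 1 being in the absence of wild type 1 or of mutant 2. *S100a11* turned to -0.14 with the gene-length correction and to -0.23 with the correction centred on 0 (adjusted p = 0.031), and *S100a14* to -0.03 with the centred correction and to -0.03 without mutant 3, in a range up to 0.45 over the libraries left out. Apart from the length trend in the libraries, which these corrections remove by construction, the cause was not tested. Members called lower numbered 0 under every alternative run.

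Over all genes, 348 were called higher and 729 lower, 32.3% of the calls being higher. The higher numbered 107 with an RPKM of at least 50, 85 at a log2 fold change of at least 1, 902 with no minimum and 200 with library size as the only scaling, where 17.3% of the calls were higher, and 43.6% were with the gene-length correction. The lower numbered 29 with an RPKM of at least 50, 284 at a log2 fold change of at least 1 and 1178 at an adjusted p under 0.05. With each library left out the higher numbered 260 to 516 and the lower 405 to 867, the lower falling to 405 when wild type 1 was left out, to 406 for wild type 2 and to 463 for mutant 2. The correlation of same-numbered libraries was -0.04 to 0.01, beside -0.025 to 0.042 for differently numbered ones. With 3 libraries per group this cannot show whether same-numbered libraries share a litter or a preparation. The replicate block gave 339 higher, 691 lower and 2 members. Depth limits *S100a13*, *S100a14* and *S100a5*, whose counts were low, and *S100a4*.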

Other observations

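Of 33 other EF-hand genes outside the S100 family, 28 were tested, 1 was called higher and 0 lower, with a median log2 fold change of 0.06. *Calml4*, a calmodulin-like gene of the brush border whose pattern over the libraries was also among the most like *S100a10*, rose from 2364 ± 177 normalized counts to 3981 ± 171 (log2 fold change 0.75 ± 0.08 SE, edgeR adjusted p = 5.8e-06). With the centred gene-length correction the value for *Calml4* was 0.46, under the threshold for a call. Abundant members that were not called included the myosin light chain genes *Myl12b* (0.01) and *Myl12a* (0.40), and *Calu* (0.13), which encodes calumenin.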
